A study of Mus musculus with 4 samples.

Results

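The clustered protocadherins are cell-surface adhesion proteins encoded by 3 gene clusters, alpha, beta and gamma, that lie side by side on mouse chromosome 18. Their members were taken from the deposited table as the rows whose gene name starts with Pcdha, Pcdhb, Pcdhga, Pcdhgb or Pcdhgc followed by a digit. The rule found 56 members among 22770 genes, 12 in the alpha cluster, 22 in the beta cluster and 22 in the gamma cluster. Pcdhac1 and Pcdhac2, the C-type genes at the end of the alpha cluster, do not meet the rule and are given separately.

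RNA was measured in cortex dissected from mouse embryos at embryonic day 16.5, in 2 libraries from wild-type littermates and 2 from embryos homozygous for the small eye allele of Pax6 (Pax6 sey/sey). Cortical progenitors use this transcription factor, and the allele is a germline mutation, present in every tissue and not in cortex alone. All 4 libraries share a mixed C57BL/6J, 129S6 and CD1 background. The values are FPKM, fragments scaled to exon length and to the mapped total of the library, so levels of different genes are compared per length. No label says that the libraries of a genotype came from separate embryos, so p-values measure the spread between these libraries, which may be technical.

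In the alpha and gamma clusters each gene has its own large first exon, which encodes the extracellular, transmembrane and part of the intracellular protein, and this exon is spliced to short constant exons that all genes of the cluster use. Beta genes have no constant exons. As background, a neuron switches on a few of the variable promoters of each cluster, a choice that involves CTCF, cohesin and DNA methylation, while C-type genes are expressed more evenly among cells. The proteins bind identical proteins on other cells or on sister branches, and they are known for self-avoidance of dendrites and axons, for synapse formation and, in the gamma cluster, for survival of interneurons.

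The 3 clusters were treated by the deposited table as 1 locus. Every member carried the same locus, chromosome 18 from 36930184 to 37841873 (GRCm38, counted from 1), which held 81 rows in all. In the GENCODE M21 annotation the alpha members spanned 36930184 to 37187661, the beta members 37264938 to 37524479 and the gamma members 37661793 to 37841873, all on the plus strand. The alpha members shared 38.0% to 54.9% of their exonic bases with other clustered protocadherin genes, and the gamma members 27.8% to 66.8%. Only Pcdhb21 and Pcdhb22, which overlap each other, shared exonic bases among the 22 beta members. Many members also have stretches of the first exon in common. Of its 50-base windows, a median of 14.9% in alpha, 4.26% in beta and 0.730% in gamma occurred unchanged in another clustered protocadherin. In 8 members, Pcdhb1 among them, no window did. Fragments from shared exons or shared windows can be divided among genes only by the authors' assignment. Each alpha and gamma value, and to a lesser extent each beta value except that of Pcdhb1, is thus uncertain in its share. Exons of 13 members also overlapped a gene on the opposite strand, and strand use is not stated.

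2 names occurred on a pair of rows each, and identifiers were used to separate them. The row ENSMUSG00000023036, listed as Pcdhga8, is Pcdhgc4 in GENCODE M21 and in RefSeq, and is called Pcdhgc4 here. The row ENSMUSG00000007440, listed as Pcdha11 in the table and in GENCODE, starts at 37005203, where RefSeq has Pcdha10, and is called Pcdha10 here.

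Gamma genes carried most of the clustered protocadherin RNA. Summed over members, the gamma cluster was at 173.2 and 169.8 FPKM in wild-type cortex and 160.2 and 152.5 FPKM in mutant cortex. The beta cluster was at 45.2 and 48.6 FPKM in wild-type cortex and 47.8 and 49.5 FPKM in mutant cortex. The alpha cluster was at 35.0 and 32.2 FPKM in wild-type cortex and 29.99 and 27.2 FPKM in mutant cortex. The gamma cluster thus made up 66.6% to 68.3% of the summed members in each library. Mutant sums lay below both wild types for alpha and gamma and overlapped them for beta.

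**Figure D1:**
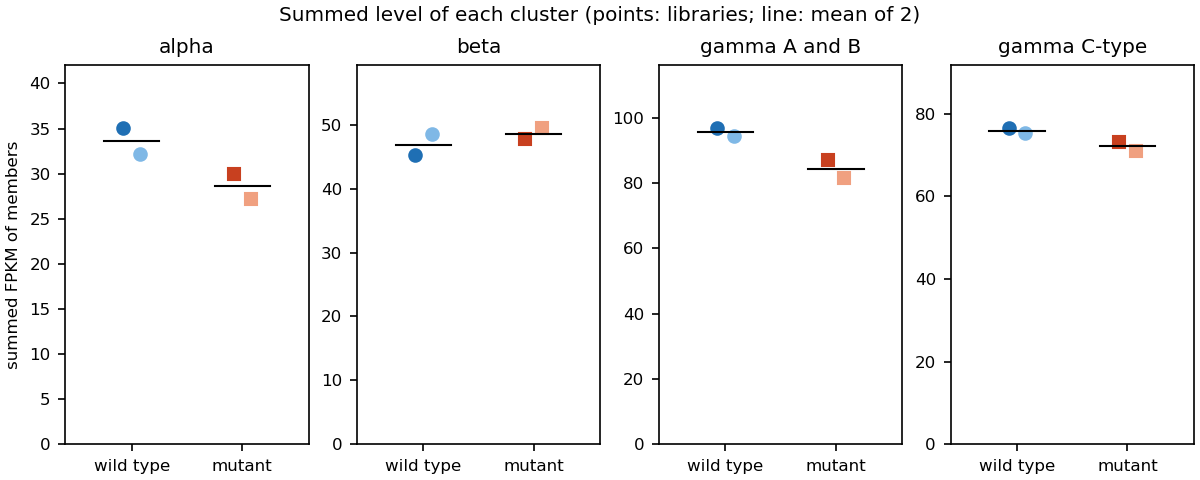
Summed FPKM of the members of each cluster (y axis, from 0) by genotype (x axis), with 1 point per library (circles wild type, squares Pax6 mutant) and a line at the mean of 2; the gamma cluster is split into the A and B genes and the C-type genes. Mutants average 28.6 against 33.6 FPKM in alpha, 48.6 against 46.9 in beta, 84.3 against 95.6 in gamma A and B and 72.1 against 75.9 in gamma C-type.

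Taken as ratios of the group means, the summed level in mutants was 0.850 of wild type for alpha, 1.04 for beta and 0.912 for gamma. Including Pcdhac1 and Pcdhac2 the alpha ratio was 0.846. Within gamma, the 12 A genes stood at 63.3 ± 2.01 FPKM in wild types and 53.5 ± 3.88 in mutants (SD, n = 2), and the 7 B genes at 32.3 ± 0.382 and 30.8 ± 0.0107. These sums are descriptions and were not tested.

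None of the members passed the test for a difference between genotypes. Genotype was tested with limma on log2(FPKM + 0.5) over the 15399 genes that reached 0.5 FPKM in 2 or more of the 4 libraries. Fold changes below are the mutant mean minus the wild-type mean on that scale, on which the change of a low gene comes out too small. Of the 56 members 54 passed this filter, and 0 of 54 had an adjusted p under 0.05, against 3.48% of all tested genes (2.02% higher and 1.46% lower in mutants). In the expression range of the members, 0.5 to 20 FPKM, which held 53 of the 54, the share of tested genes called was 2.88%. The smallest adjusted p of a member was 0.169, and 3 members had an unadjusted p under 0.05, against 19.5% of all tested genes. In the authors' deposited table, whose test is not stated, 0 of the 56 had a p-value under 0.05, against 417 of 22770 genes. The lowest deposited p-value of a member was 0.622.

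The 95% intervals of the members' differences had a median half-width of 0.49 on the log2 scale, a factor of 1.41. Smaller differences in either direction were thus not resolved for most members. The intervals are not adjusted for the number of genes, so larger differences could also go uncalled. Pcdha9, Pcdha11 and Pcdhga1 had intervals clear of 0 and were not called. Over all tested members the fold changes ran from -0.66 (Pcdha11) to 0.40 (Pcdhb10). Their median size was 0.14, against 0.17 over all tested genes and 0.21 over tested genes of 0.5 to 20 FPKM. In 19 of 54 members (35.2%) the mutants lay entirely on 1 side of the wild types, 13 lower and 6 higher, against 51.6% of all tested genes, 25.8% lower and 25.8% higher. In 15 members (27.8%) the difference between genotype means was larger than both differences between libraries of a genotype, against 39.3% of all tested genes. The direction was unevenly spread over the clusters: 9 of 11 alpha and 18 of 22 gamma fold changes were below 0, but 6 of 21 in beta, against 49.9% of all tested genes. The clusters were not tested against each other. Members of alpha and of gamma also share their constant exons, so their values are not independent of each other.

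**Figure D2:**
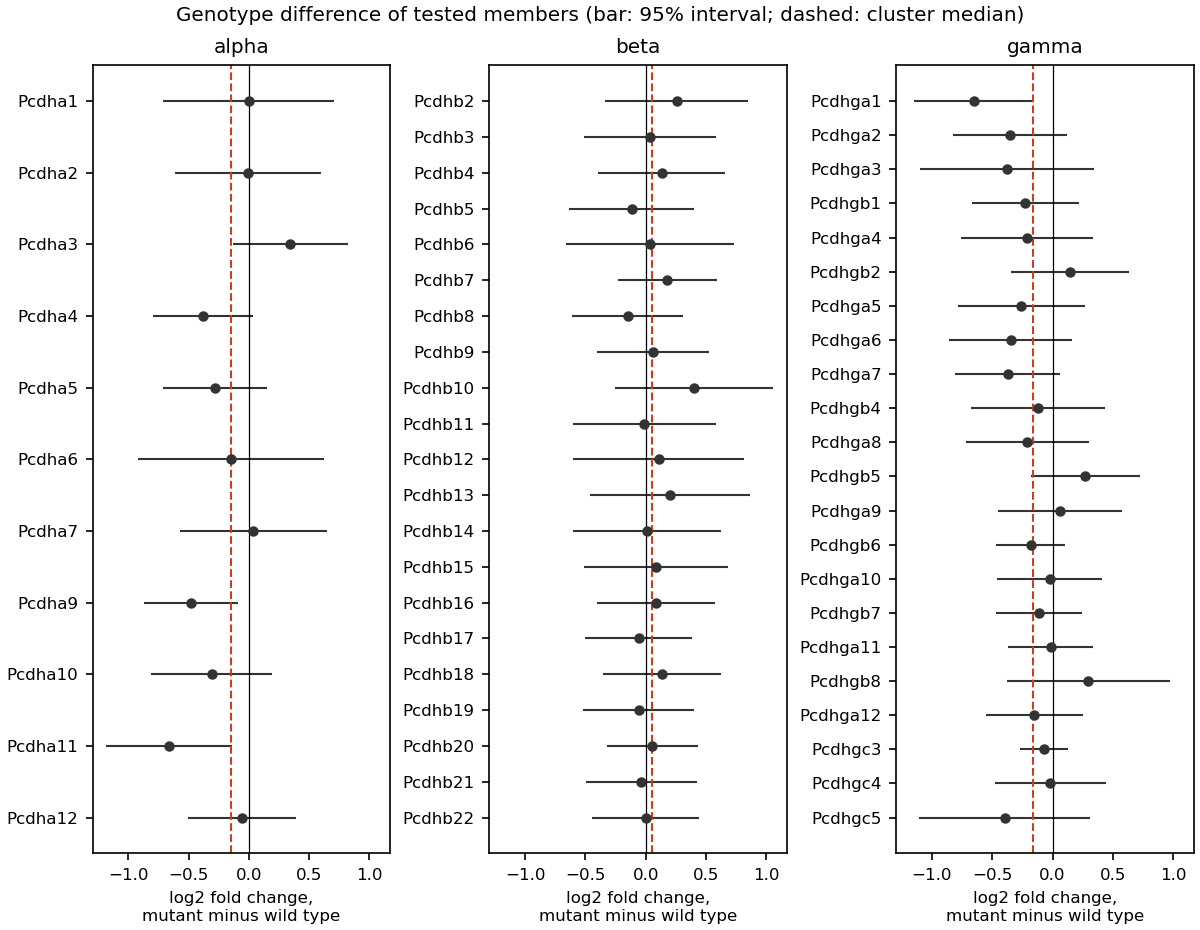
Log2 fold change of FPKM + 0.5, mutant minus wild type (x axis), of the 54 tested members in genomic order from top to bottom, with 95% limma intervals as bars and the cluster median as a dashed line. Medians lie at -0.15 in alpha, 0.05 in beta and -0.17 in gamma, and 3 intervals, those of Pcdha9, Pcdha11 and Pcdhga1, do not cross 0.

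The alpha genes encode receptors that are prominent in growing axons. Pcdha9 was the alpha member with the highest mean over the 4 libraries, at 4.75 and 4.91 FPKM in wild-type cortex and 3.48 and 3.16 FPKM in mutant cortex. Both mutants were below both wild types, and the log2 fold change was -0.48 (95% interval -0.87 to -0.09, limma adjusted p = 0.186), so it was not called. Pcdha11 was at 4.44 and 4.04 FPKM in wild-type cortex and at 2.92 and 2.11 FPKM in mutant cortex. Both mutants were lower. Its log2 fold change of -0.66 (95% interval -1.18 to -0.14, limma adjusted p = 0.176) was the most negative among members. Exons of Pcdha11 overlap 2 genes on the opposite strand, Gm10544 and Gm10545, and the first of these was itself at 2.48 to 3.04 FPKM.

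Pcdha4 was at 4.51 and 3.94 FPKM in wild-type cortex and at 3.18 and 3.07 FPKM in mutant cortex, a fold change of -0.38 (limma adjusted p = 0.292). Pcdha5 and Pcdha10 also had both mutants below both wild types, with fold changes of -0.28 and -0.31. Pcdha3 went the other way, with 2.58 and 3.35 FPKM in wild-type cortex and 3.86 in both mutants (0.34, limma adjusted p = 0.391). Exons of Pcdha4 overlap Gm38225 on the opposite strand, which was at 4.11 and 0.830 FPKM in wild types and 0 and 2.22 in mutants. The libraries of Pcdha12 overlapped, at 4.28 and 3.51 FPKM in wild types and 3.89 and 3.51 in mutants, and its fold change was -0.06.

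Among the lower alpha members, Pcdha1 (0.646 to 1.10 FPKM), Pcdha2 (2.40 to 3.44), Pcdha6 (1.45 to 2.76) and Pcdha7 (1.89 to 2.67) had overlapping groups and fold changes between -0.15 and 0.04. The wild-type libraries of Pcdha6 differed by 0.74 on the log2 scale, more than its genotype means (-0.15). Pcdha8 missed the filter, at 0.336 and 0.338 FPKM in wild types and 0.510 and 0.110 in mutants, and was not tested. The alpha median was -0.15, against 0.00 over all tested genes. It was -0.29 without wild-type library 2 and -0.24 without mutant library 1.

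The C-type alpha genes outside the rule are the end of the same cluster and use the same constant exons. Pcdhac2, whose protein is needed for even spacing of serotonergic axons, was above every alpha member, at 6.48 and 6.02 FPKM in wild-type cortex and 5.03 and 4.73 FPKM in mutant cortex. Both mutants were below both wild types, and the log2 fold change of -0.33 was not called (95% interval -0.67 to 0.02, limma adjusted p = 0.282). Pcdhac1 was at 1.09 and 0.554 FPKM in wild types and 0.870 and 1.07 in mutants (0.18, limma adjusted p = 0.793), with overlapping groups. Serotonergic cell bodies are not found in cortex, and their marker genes Tph2 and Slc6a4 were at 0.031 to 0.211 FPKM and 0.063 to 0.469 FPKM.

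**Figure D3:**
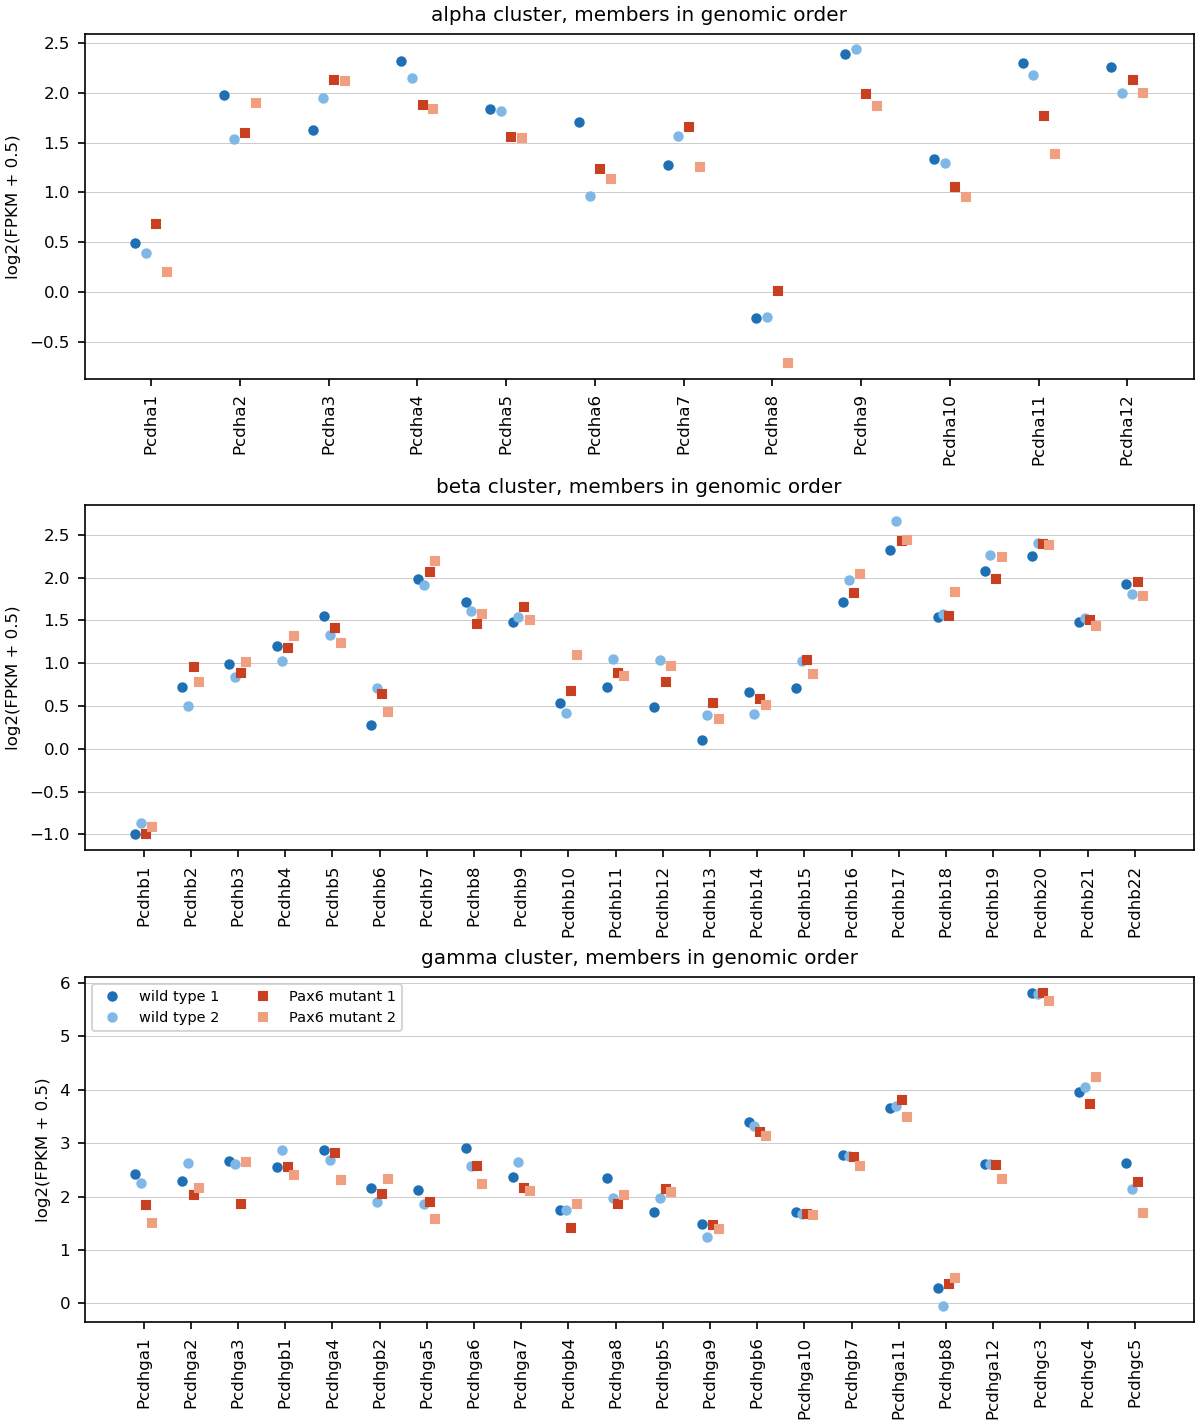
Level of each of the 56 members as log2(FPKM + 0.5) (y axis) in genomic order (x axis) for the alpha, beta and gamma clusters, with 1 point per library (circles wild type, squares Pax6 mutant). Pcdhgc3 stands highest at 49.9 to 56.0 FPKM, Pcdhb1 lowest at 0 to 0.0491 FPKM, and most members have libraries of the 2 genotypes side by side.

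The beta genes, which encode adhesion proteins of the same extracellular type, consist of a coding exon without constant exons. Only Pcdhb21 and Pcdhb22 share exonic bases, 9.67% and 6.88% of their own. Pcdhb17 had the highest mean, at 4.50 and 5.84 FPKM in wild-type cortex and 4.90 and 4.91 FPKM in mutant cortex (log2 fold change -0.06, 95% interval -0.50 to 0.38). The mutants lay between the wild types. Pcdhb20 was at 4.28 and 4.81 FPKM in wild types and 4.74 and 4.72 in mutants (0.05, 95% interval -0.32 to 0.43), Pcdhb19 at 3.73 and 4.29 against 3.44 and 4.24 (-0.06), and Pcdhb7 at 3.47 and 3.25 against 3.68 and 4.06 (0.18).

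The most positive fold change of any member was that of Pcdhb10, at 0.950 and 0.839 FPKM in wild-type cortex and 1.09 and 1.63 FPKM in mutant cortex (0.40, 95% interval -0.25 to 1.06, limma adjusted p = 0.460). The mutants were both higher, but they differed from each other by more than the genotype means did on the log2 scale. Pcdhb2 (0.911 to 1.15 FPKM in wild types, 1.21 to 1.44 in mutants) and Pcdhb7 were the other beta members with both mutants higher, and Pcdhb8 (2.56 to 2.80 in wild types, 2.24 to 2.49 in mutants, -0.15) the only beta member with both lower. Pcdhb13 (0.20) and Pcdhb5 (-0.12) had overlapping groups. The remaining beta members had overlapping groups too, with fold changes from -0.06 to 0.13, and the beta median was 0.05. Without wild-type library 1 it was -0.01, and without wild-type library 2 it was 0.13.

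Levels of beta genes rose loosely with their place in the cluster. The last 7 genes, Pcdhb16 to Pcdhb22, had means over the 4 libraries of 2.31 to 5.04 FPKM (median 3.22), and the 15 genes before them 0.0203 to 3.62 FPKM (median 1.34). This division was chosen after the values were seen, and its 2 stretches overlap: Pcdhb7, among the first 15, was at 3.62 FPKM. Across the 22 beta genes the Spearman correlation of mean FPKM with start position was 0.53, a description over genes measured in the same libraries. In alpha it was 0.22 over 12 genes and in gamma 0.20 over 22 genes. Mean FPKM of the beta genes also had a Spearman correlation of 0.39 with their exonic length.

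Pcdhb1, at the alpha side of the beta cluster, was listed at 0 in wild-type library 1 and mutant library 1 and at 0.0491 and 0.0323 FPKM in wild-type library 2 and mutant library 2. The ratio of these values is 1.52, and 1.52 was also the most frequent ratio between these libraries over 649 genes listed above 0 and under 0.1 FPKM in both, of which 42.8% lay within 0.05 of it on the log2 scale. Pcdhb1 has 2588 exonic bases. If they are 1 fragment each, 1 FPKM of a gene of this length rests on about 20.4 fragments in wild-type library 2 and 31.0 in mutant library 2. By the same reading, Pcdhb10 rested on about 18.8 and 55.7 fragments in these libraries.

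The A and B genes of the gamma cluster resemble the variable alpha genes in their regulation. Pcdhga1, the member nearest the beta cluster, was at 4.84 and 4.25 FPKM in wild-type cortex and at 3.10 and 2.35 FPKM in mutant cortex. Both mutants were lower, and the log2 fold change of -0.65 (95% interval -1.15 to -0.16) had the smallest adjusted p of all members (limma adjusted p = 0.169). Exons of Pcdhga1 overlap Gm37118 on the opposite strand, which was at 2.51 and 1.52 FPKM in wild types and 1.43 and 1.53 in mutants. Pcdhga2 (4.37 and 5.70 FPKM in wild types, 3.61 and 3.99 in mutants, -0.36), Pcdhga6 (7.03 and 5.46 against 5.42 and 4.20, -0.35) and Pcdhga7 (4.64 and 5.79 against 3.97 and 3.82, -0.37) also had both mutants lower. None of the 3 was called, with limma adjusted p from 0.313 to 0.418.

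Pcdhga3 showed how far 1 library can set a difference. It was at 5.86 and 5.61 FPKM in wild-type cortex, 3.16 in mutant library 1 and 5.79 in mutant library 2, so its fold change of -0.38 came from a single mutant library and the groups overlapped. Pcdhga4 was at 6.79 and 5.96 FPKM in wild types and 6.58 and 4.46 in mutants (-0.21). Pcdhga11, the highest A gene, was at 12.1 and 12.4 FPKM in wild types and 13.6 and 10.8 in mutants, with a fold change of -0.02 (95% interval -0.37 to 0.34).

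In the gamma B genes, Pcdhgb6 was highest at 9.99 and 9.48 FPKM in wild-type cortex and 8.72 and 8.32 FPKM in mutant cortex (-0.18, 95% interval -0.47 to 0.10, limma adjusted p = 0.442). The groups did not overlap. Pcdhgb5 was higher in both mutants, at 2.77 and 3.43 FPKM in wild types and 3.89 and 3.77 in mutants (0.27), as was Pcdhgb8, at 0.722 and 0.464 against 0.780 and 0.891 (0.30). Pcdhgb8 is annotated as a polymorphic pseudogene. Pcdhgb2 had overlapping groups, at 3.97 and 3.25 FPKM in wild types and 3.62 and 4.50 in mutants (0.15).

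The other gamma A and B genes, Pcdhgb1, Pcdhga5, Pcdhgb4, Pcdhga8, Pcdhga9, Pcdhga10, Pcdhgb7 and Pcdhga12, had means over the 4 libraries of 2.13 to 6.07 FPKM and fold changes from -0.26 to 0.06. Pcdhgb7 and Pcdhga12 had both mutants lower. The median was -0.23 over the 12 A genes and -0.11 over the 7 B genes, and 11 of 12 A genes and 4 of 7 B genes were below 0. Exons of Pcdhga10, Pcdhgb7, Pcdhga11 and Pcdhga12 overlap the gene Gm26672 on the opposite strand, which was at 0.793 to 1.28 FPKM in all libraries.

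The C-type gamma genes lie at the far end of the cluster, and their first exons shared no 50-base window with another clustered protocadherin. Pcdhgc3, whose protein promotes dendrite branching of cortical neurons, was the highest member, at 55.8 and 55.3 FPKM in wild-type cortex and 56.0 and 49.9 FPKM in mutant cortex. It alone made up 32.2% to 35.0% of the gamma sum. Its log2 fold change was -0.07, with the narrowest interval of all members (-0.27 to 0.13, limma adjusted p = 0.685), which is 0.828-fold to 1.10-fold. Exons of Pcdhgc3 overlap BC037039 on the opposite strand, which was at 0.244 to 1.29 FPKM.

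Pcdhgc4, the isoform known to be needed for survival of cortical interneurons, was at 15.01 and 16.1 FPKM in wild-type cortex and 12.9 and 18.3 FPKM in mutant cortex. The mutants lay on both sides of the wild types, and the log2 fold change was -0.02 (95% interval -0.48 to 0.44, limma adjusted p = 0.972). Pcdhgc5, which is mainly a gene of postnatal brain, was at 5.65 and 3.90 FPKM in wild types and 4.32 and 2.75 in mutants (-0.39, limma adjusted p = 0.503). The groups of Pcdhgc5 overlapped.

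**Figure D4:**
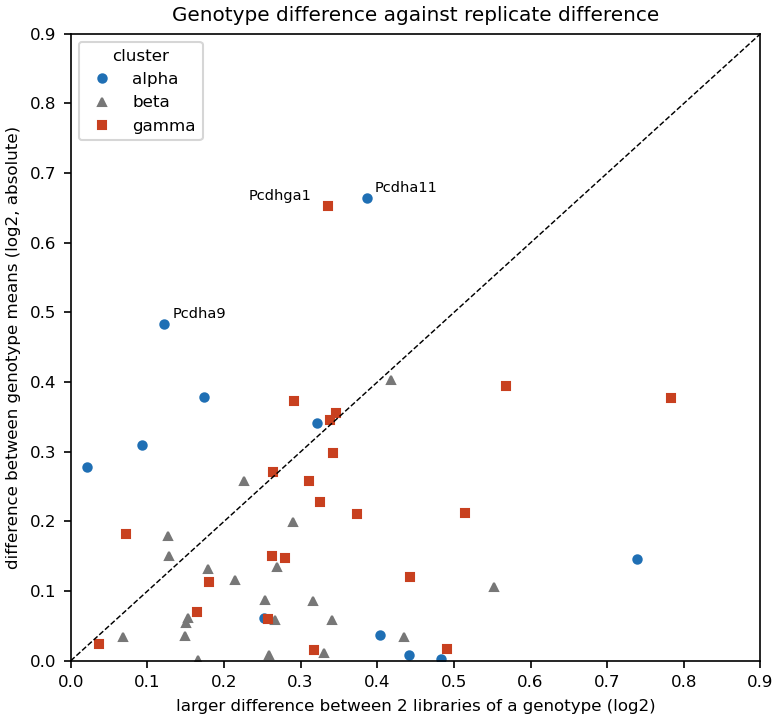
Size of the difference between genotype means (y axis) against the larger of the 2 differences between libraries of a genotype (x axis), both on the log2(FPKM + 0.5) scale, for the 54 tested members by cluster, with a dashed line where they are equal. 15 members lie above the line, with Pcdha11, Pcdhga1 and Pcdha9 highest.

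The Pearson correlation over the 54 tested members was 0.967 for the wild-type pair, 0.961 for the mutant pair and 0.940 to 0.970 for pairs of unlike genotype, on the log2(FPKM + 0.5) scale. It is a description over genes that share exons, and it rests largely on the wide range of levels between genes. Within alpha, over 11 tested members, the Spearman correlation was 0.827 for the wild-type pair and 0.855 for the mutant pair, and 0.545 to 0.818 for pairs of unlike genotype. Within beta it was 0.918 and 0.944 for the like pairs and 0.930 to 0.952 for the unlike ones, and within gamma 0.884 and 0.836 against 0.827 to 0.894. The number of members that an equal division of the cluster sum would need (the exponential of the Shannon entropy of the shares) was 10.3 to 10.9 of 12 in alpha, 17.98 to 18.5 of 22 in beta and 12.3 to 13.3 of 22 in gamma. The alpha members hold no C-type gene, and gamma without its C-type genes was at 16.2 to 16.9 of 19. Use of the alpha, beta and gamma A and B genes was thus spread over most members in both genotypes. Pcdhgc3 alone held 32.2% to 35.0% of the whole gamma sum. For alpha and gamma these numbers also rest on the authors' division of fragments from shared exons.

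Pax6 itself was at 28.8 and 27.0 FPKM in wild-type cortex and at 101 and 120 FPKM in mutant cortex (log2 fold change 1.96, limma adjusted p = 0.00466). The small eye allele leaves a transcript, so this level does not check the genotype label. RNA levels of marker genes of several cell types differed between genotypes. The counts of markers that rose or fell stand against 2.02% called higher and 1.46% called lower over all tested genes. Of 6 markers of GABAergic cells 6 rose, the 4 of smallest p being Gad1 (log2 fold change 2.18), Dlx1 (2.78), Dlx5 (3.30) and Dlx2 (3.07), with a summed level of 94.6 to 116 FPKM in wild types and 645 to 744 in mutants. Of 5 markers of glutamatergic cells 4 fell, Slc17a6 (-2.06), Tbr1 (-0.87), Neurod2 (-0.81) and Neurod6 (-0.73), and the sum of all 5 was 893 to 973 FPKM in wild types and 515 to 567 in mutants. Of 10 markers of radial glia and cycling progenitors 5 rose, the 4 of smallest p being Sox2 (1.79), Cdk1 (0.71), Ccnb1 (0.93) and Top2a (1.11), and 0 fell. The other called gene was the cycling marker Mki67 (1.01). The radial glia markers other than Sox2 were not called and differed in sign, with Slc1a3 at -0.60 (limma adjusted p = 0.0786), Fabp7 at -0.25, Vim at 0.05, Nes at 0.17 and Hes5 at 0.42. Of 10 general neuronal markers 1 fell (Rbfox3, -0.93) and 0 rose, with a sum of 2554 to 2656 FPKM in wild types and 2357 to 2418 in mutants. This sum is mostly Tubb3, Stmn2, Map2 and Dcx. Fold changes were below 0 in 7 of the 10 and above 0 in 3, against 49.9% of all tested genes below 0. The median of the 10 was -0.17. The 3 above 0 were Dcx (0.02), Nefm (0.44) and Nefl (0.48), and uncalled markers below 0 included Gap43 (-0.32) and Map2 (-0.19). In bulk tissue, fewer cells of a type and less RNA per cell cannot be told apart, and the part of cell makeup in the members' values was not tested.

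Meningeal markers were highest in mutant library 1. The sum of 5 such genes (collagens, Lum and Dcn) was 26.5 FPKM there, 5.83 in mutant library 2 and 2.40 to 3.59 in wild-type cortex. Of the 4 that were tested 0 were called by limma, against 3.48% of all tested genes. An unadjusted limma p under 0.05 was found for 3, against 19.5% of all tested genes. Without mutant library 1, which leaves 1 mutant library, the member medians were -0.24 in alpha, 0.05 in beta and -0.19 in gamma. With all 4 libraries they were -0.15, 0.05 and -0.17. The part of meningeal tissue in the members' values was not tested. Of 7 vessel markers 0 were called by limma, and 3 had an unadjusted p under 0.05, against the same 3.48% and 19.5%. All 7 were above 0, against 49.9% of all tested genes below 0. Their sum was 63.2 to 66.9 FPKM in wild types and 76.1 to 93.1 in mutants. Sums of 5 microglial markers (13.3 to 16.8 FPKM) and 5 oligodendrocyte precursor markers (15.1 to 30.1) overlapped between genotypes. The sum of 4 red blood cell markers was 1240 and 1335 FPKM in wild types and 1438 and 1350 in mutants. Of the microglial, oligodendrocyte precursor and red blood cell lists 0 genes were called by limma, against 3.48% of all tested genes. An unadjusted limma p under 0.05 was found for 1, against 19.5%.

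Genes of CTCF and cohesin, and of DNA methylation and silencing, were examined as lists. Whether each listed gene acts on promoter choice in the clusters was not tested. Of 14 genes of CTCF, cohesin and its loading and release factors, 0 were called by limma (4 at an unadjusted p under 0.05), against 3.48% called and 19.5% at that p over all tested genes. Fold changes were above 0 in 13 of 14, against 49.9% of all tested genes below 0, and the median was 0.13. The 4 were Rad21 and Smc1a, subunits of cohesin (0.39 and 0.23), Stag1, a further subunit (0.34), and Esco2, which acetylates cohesin in S phase (1.17), chosen after their values were seen, with limma adjusted p from 0.0707 to 0.151. Ctcf, which codes for the protein that binds the promoters and the enhancers of the clusters, was at 62.7 ± 0.685 FPKM in wild types and 66.3 ± 0.575 in mutants (log2 fold change 0.08, limma adjusted p = 0.521). Wapl, which releases cohesin from DNA, was at 21.5 ± 1.12 and 22.2 ± 1.52 FPKM (0.05, limma adjusted p = 0.827).

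Of 14 genes of DNA methylation and silencing 1 rose and 0 fell, against 2.02% and 1.46% of all tested genes, and 5 had an unadjusted p under 0.05, against 19.5%. All 14 were above 0, against 49.9% of all tested genes below 0, and the median was 0.26. The gene that rose was Uhrf1, which recruits maintenance DNA methyltransferase to replicating DNA, from 14.3 ± 1.15 to 27.5 ± 3.36 FPKM (0.91, limma adjusted p = 0.0336). Cycling markers moved with it (Mki67 1.01, Top2a 1.11), and their part in the levels of this list was not tested. Smchd1, a chromatin protein that represses clustered protocadherin promoters, was at 21.4 ± 1.53 and 24.4 ± 1.15 FPKM (0.18, limma adjusted p = 0.353). Dnmt3b, the methyltransferase that marks these promoters in the early embryo, was at 1.23 ± 0.109 and 1.85 ± 0.137 FPKM (0.44, limma adjusted p = 0.331).

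Among 19 genes of cytoplasmic partners and processing enzymes 0 were called by limma, against 3.48% of all tested genes. An unadjusted limma p under 0.05 was found for 4, against 19.5% of all tested genes. Fold changes were above 0 in 8 and below 0 in 11, with a median of -0.04. Ptk2, the focal adhesion kinase that alpha and gamma proteins inhibit, was at 36.3 ± 1.98 FPKM in wild types and 33.8 ± 2.84 in mutants (-0.10, limma adjusted p = 0.606). Of 18 tested neighbouring genes of the same chromosome 1 was called higher and 0 lower, against 2.02% and 1.46% of all tested genes. An unadjusted limma p under 0.05 was found for 3, against 19.5% of all tested genes, and the median was 0.01. The called gene was Pcdh1, a protocadherin outside the clusters. It rose from 8.997 ± 1.42 to 16.6 ± 0.381 FPKM (0.85, limma adjusted p = 0.0451). Taf7, a general transcription factor gene between the beta and gamma clusters, was at 7.9998 and 8.60 FPKM in wild types and 8.04 and 8.78 in mutants (0.02, limma adjusted p = 0.955). Of the 23 other rows that the table placed in the locus, mostly noncoding and read-through transcripts, 10 were tested. Of these 0 were called, against 3.48% of all tested genes. 2 low rows, picked after their values were seen, differed in opposite directions. Gm38097 was at 0.619 and 0.756 FPKM in wild types and 0 in both mutants (-1.25, limma adjusted p = 0.0989). Slc25a2, which was not tested, was at 0 in both wild types and 0.551 and 0.403 FPKM in mutants.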

How the data were processed

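Per the file headers, the authors deposited 1 table with an FPKM value for each of 22770 genes in 4 libraries, the group FPKM, their ratio (fold, mutant over wild type) and a p-value whose test is not stated. Tools listed in the submitters' processing notes are Cufflinks 2.2.1, TopHat2 2.0.9 and edgeR, and the builds mm10 and GRCm38.p4. No role is given for any of them. Column totals were 579698 to 593256 FPKM, and FPKM keeps no fragment totals, so absolute depth is unknown.

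Libraries were grouped by their titles. Genes reaching 0.5 FPKM in 2 or more libraries (15399) entered limma 3.58.1 in R 4.3.3 with a mean-variance trend, on log2(FPKM + 0.5). Calls used Benjamini-Hochberg adjusted p under 0.05 across these genes. The smallest exact two-sided permutation p for 2 against 2 libraries is 0.333. The script was tested on data simulated over all tested genes, not at the members' levels alone. There 12% of 1.5-fold, 56% of 2-fold and 92% of 4-fold changes were recovered. Coordinates and exons came from GENCODE M21 (GRCm38), names of duplicated rows from GENCODE and RefSeq (GRCm38.p6). Symbols matched 22599 identifiers.

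The members and gene lists were chosen with earlier results of these data known. Named were Pax6, in each cluster the 4 highest members, the 3 most positive and 3 most negative fold changes and the highest member under the filter, the C-type genes, up to 4 called genes of each list, and Ctcf, Smchd1, Dnmt3b, Wapl and Ptk2. Other members and list genes named were added after their values were seen. 12 alternative settings were run. 1 gene of the glutamatergic marker list is not reported here and was left out of its count and sum. No member sequence is printed.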

Additional observations from a re-analysis of the deposited data

How the results depend on the processing

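No clustered protocadherin was called under any of the 12 alternative settings, where the smallest adjusted p of a member in limma lay between 0.131 (quantile normalization) and 0.377 (without wild-type library 2). The count of all called genes was 536, and 61 with no filter on low values, 54 without the mean-variance trend and 7 to 59 when 1 library was left out. Leaving out wild-type library 1 gave 7, wild-type library 2 gave 13, mutant library 1 gave 59 and mutant library 2 gave 27. The lone library is then assumed to vary like the other genotype. The alpha median of -0.15 was -0.21 with a filter of 1 FPKM, which drops Pcdha1, and -0.29 (without wild-type library 2) to -0.11 (without wild-type library 1) with 1 library left out. The gamma median lay between -0.19 and -0.11 and the beta median between -0.01 and 0.13 over all settings. The beta median was below 0 only without wild-type library 1. With the replicate number as a block, 374 genes and 0 members were called and the alpha, beta and gamma medians were -0.15, 0.05 and -0.17. Same-numbered libraries deviated together with a correlation of 0.05 over tested genes, and the labels do not tie a number to a litter. Scaling the libraries to 1 median or by quantiles moved the median of all genes to -0.0049 and -0.013. Low fragment numbers limit members near 1 FPKM.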
